A study of Rattus norvegicus with 12 samples.

Results

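The 6 mammary gland libraries of the control diet were described here on their own, 6 of the 12 libraries of the series, with no comparison between diets. The members were the libraries whose diet label reads control, numbered 7, 8, 9, 10, 11 and 14, and each is called a control gland below with that number. They came from rat offspring at PND21, around weaning, whose dams were on the AIN control diet, with no BPA named in the labels. The rats were Sprague-Dawley females in the study's methods. The labels name the tissue as mammary gland and the design as a snap-frozen gland per litter, so that the 6 glands are replicates at the level of the litter. The methods of the paper, from which strain and sex were taken, describe RNA from epithelium taken by laser capture microdissection, for glands of high-butterfat diet groups with or without BPA and not for the control diet. The labels were followed here, and the levels of adipocyte, matrix and epithelial genes are given below. Reads counted on 16511 genes were analysed, and 16351 of these genes carried a symbol in the reference table.

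Total counts were 2944680, 2570080, 2403464, 2562236, 2426327 and 2512891 in glands 7, 8, 9, 10, 11 and 14. Levels are given as CPM, the counts of a gene as a part of 1000000 counts of its gland after TMM scaling, a correction for differences in composition between libraries. The smallest detectable level was set at 3 counts, which corresponded to between 0.984 and 1.33 CPM in a gland, a limit that covers counting error only. CPM was not corrected for transcript length, so the order of genes below is an order of shares of counted reads and not of transcript number. Between 10626 and 11027 genes per gland had at least 3 counts, 10741 genes had a count in all 6 glands, and 3297 genes had 0 counts in all of them. No pair of these glands held the same counts within sampling noise, since over 15 pairs the chi-square divided by its degrees of freedom was 6.69 or more, and each gland was counted as 1 replicate.

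At weaning the rat mammary gland is a fat pad into which a small tree of ducts has begun to grow, and the mass of the tissue is adipocytes, fibroblasts and their collagen-rich matrix rather than epithelium. The ducts are lined by luminal cells, which can later make milk, and by a basal layer of contractile myoepithelial cells. Vessels, nerves and immune cells run through the pad, some rat mammary fat pads enclose a lymph node, and muscle of the body wall and skin lie next to it.

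Gland 14 stood apart from the other 5 control glands in most of what follows. Across the 6404 genes with a mean count of at least 50, the Pearson correlation of log2(CPM + 1) between gland 14 and each other control gland was between 0.730 and 0.775, whereas the 10 pairs among the other glands gave 0.944 to 0.977. These values describe likeness across genes, which are not independent replicates. Gland 14 had the highest or the lowest CPM of the 6 for 4969 of those genes, or 77.6%, with the highest for 36.9% and the lowest for 40.6%. Lymphocyte, lymph node stroma and MHC class II genes were high in it, and adipocyte, matrix and mast cell genes were low. Main ranges that rest on this gland are therefore given without it as well. In RNA of many cells together, fewer cells of a type and less RNA per cell cannot be told apart, so a low sum for a marker list does not say which of them was the case. What set gland 14 apart was not tested.

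Protein-coding genes took 90.4% to 97.9% of the counts of a gland. Genes of ribosomal RNA took 0.581% to 7.26%, and the 22 genes of long noncoding RNA took 0.169% to 0.829% (0.434% to 0.829% without gland 14). Genes encoded in the mitochondria were not analysed here. The counts were spread unevenly over genes. The 10 most abundant genes of each gland held 14.9 ± 2.82% of its counts (SD, n = 6) and the 100 most abundant held 34.6 ± 3.77%. As few as 267 genes made up 50% of the counts in gland 9, and 537 were needed in gland 14, so that the counts of gland 14 were the least concentrated. A mean level of at least 1000 CPM was reached by 112 genes and one of at least 10000 CPM by 6.

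Genes known from fat and connective tissue were frequent among the 20 with the largest mean, beside 6 genes of hemoglobin and ribosomal RNA. Rn45s, a ribosomal RNA precursor, had a mean of 18691 CPM (10639.5 CPM without gland 11) and was the most counted gene of glands 11 and 14. Scd, the desaturase that makes monounsaturated fatty acids, had the largest mean at 29212 ± 17261 CPM (SD, n = 6) and ran from 7802 to 52089.5 CPM (median 23995; 19377 to 52089.5 without gland 14). Glands 8 and 10 held the high values, and gland 14 the lowest. Fabp4, the fatty acid carrier of adipocytes, followed with 19551 ± 4344 CPM (SD, n = 6), and outside gland 14 it stayed between 18935 and 23458 CPM. Fibrillar collagen genes and Sparc, which encodes a collagen-binding matrix protein, were next among protein-coding genes. Col3a1 had 8579 to 22283 CPM (median 18599; 18086 to 22283 without gland 14), Col1a1 9292 to 18675 CPM (median 14671; 12294 to 18675 without gland 14) and Sparc 5944 to 15446 CPM (median 13526; 12651 to 15446 without gland 14). All of these were lowest in gland 14, and without it their CV between glands (SD divided by mean) was 0.0901, 0.158 and 0.0837.

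Of the other genes among the 20 most abundant, Car3 (a carbonic anhydrase abundant in adipocytes and slow muscle), Adipoq (the hormone adiponectin), Thrsp (a regulator of lipogenesis), Col1a2, Gsn (the actin-severing protein gelsolin) and Sncg (gamma-synuclein, also present in adipocytes) belong to the same tissues or are known in them. Adipoq ran from 1573 to 7389 CPM (median 6305), and the 5 glands other than gland 14 lay between 5693 and 7389 CPM. Car3 fell furthest of the 20 in gland 14, where it was at 824 CPM against at least 8545 CPM in the other glands. H19, an imprinted long noncoding RNA that is active in fetal and early postnatal tissue, was present at 1369.5 to 8660.2 CPM (median 4916; 4182 to 8660.2 without gland 14). Eef1a1 (a translation elongation factor) and Fth1 (the heavy chain of ferritin) are used by nearly every cell and each had a CV of 0.201. The remaining 6 were hemoglobin and ribosomal RNA genes, which are described below.

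Together the 20 genes took 19.2% of the counts on average, from 12.7% in gland 14 to 22.9%. The lowest value of the 6 was in gland 14 for 16 of them. The list was little affected by the scaling of the counts, as all 20 were also the first 20 by library totals and by DESeq2 size factors.

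**Figure D1:**
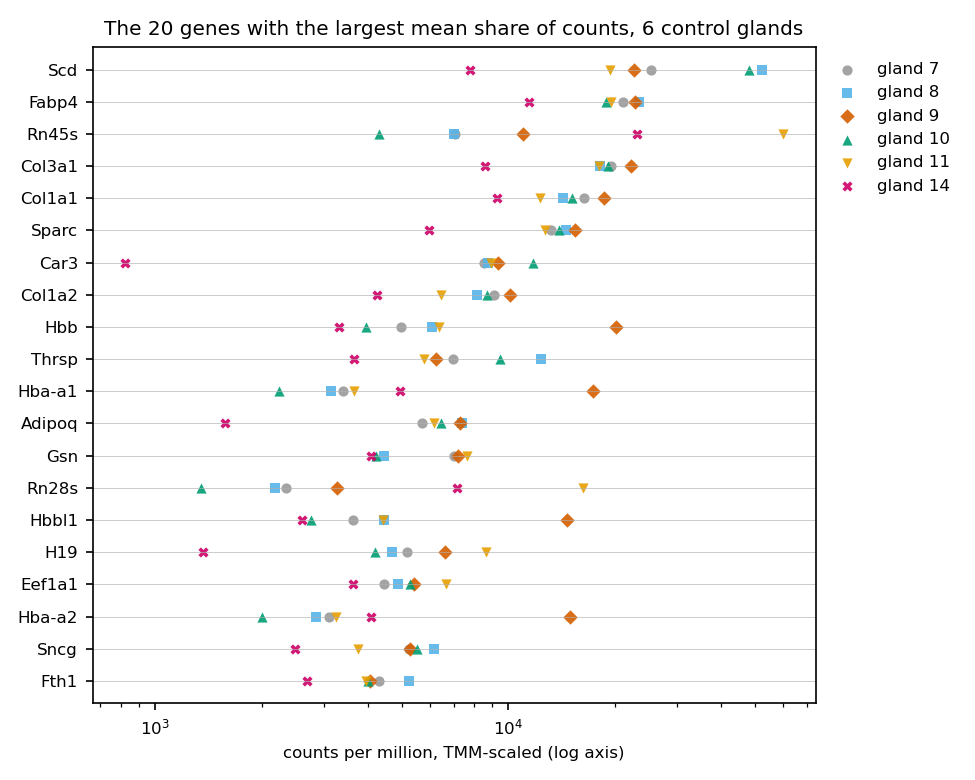
CPM of the 20 genes with the largest mean in each of the 6 control glands, on a log axis, with a symbol and colour per gland. Gland 14 is the lowest point for 16 of the 20 genes, while hemoglobin genes are highest in gland 9 and ribosomal RNA genes in gland 11.

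The labelled tissue was checked with 35 lists of marker genes. Of their 384 entries, 343 had a row in the counts used, and the other 41, among them Fasn, Acta2, Krt5, Krt7, Kdr and Ttn, were not analysed here. Sums over a list are comparable between glands but not between lists, since lists differ in number and length of genes.

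Adipocyte genes were present at high levels in every gland. All 18 members measured had a mean count of at least 50, and together they took 5.90% of the counts. Their summed level ran from 24374 to 72541 CPM (median 66061). The 5 glands other than gland 14 lay close together at 60529 to 72541 CPM, and gland 14 was at 24374 CPM. It held the lowest value for 17 of the 18 genes (against 40.6% of all genes). Cebpa, a transcription factor of adipocyte differentiation, was at 17.4 CPM there and at 131 to 164 CPM elsewhere, and Lpl, the lipoprotein lipase, was at 624 CPM against 3586 to 6006 CPM. Cfd (adipsin) was the exception, with its lowest level in gland 10 at 1521 CPM. Lep, which encodes leptin, had 319 to 1166 CPM (median 1048; 911 to 1166 without gland 14).

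Genes of fatty acid synthesis divided the glands in another way. The summed level of the 10 measured genes was 68001 CPM in gland 8 and 60252 CPM in gland 10, against 26705 to 33655 CPM in glands 7, 9 and 11 and 12599 CPM in gland 14. Scd made up most of these sums. Me1, the malic enzyme that supplies NADPH for lipid synthesis, separated the same pair of glands more sharply, with 1334 CPM in gland 8, 965 CPM in gland 10 and at most 346 CPM in the other glands. Acaca, the acetyl-CoA carboxylase, ran from 14.9 to 261 CPM (median 92.5; 72.9 to 261 without gland 14), and Elovl6, a fatty acid elongase, from 12.4 to 49.7 CPM (median 15.1). Of the 9 members with a mean count of at least 50, 6 had a CV over 0.5, against 8.81% of all genes (Scd, Me1, Acaca, Gpam, Elovl5 and Elovl6), and 3 still did without gland 14, against 1.41%. In the adipocyte list, by contrast, the sums of glands 8 and 10 were 72541 and 68559 CPM, and those of glands 7, 9 and 11 were 63563, 69162 and 60529 CPM.

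The sum of the cholesterol synthesis genes ran from 947 to 2297 CPM (median 1867; 1441 to 2297 without gland 14). Insig1, the sterol-regulated retention factor of the pathway, had 408 to 1514 CPM (median 1244; 827 to 1514 without gland 14). It made up most of that sum, with a mean of 1115 CPM against 1772 CPM for the list. Of the 9 members with enough counts, gland 14 was lowest for 4 and highest for 3 (against 40.6% and 36.9% of all genes). Only Mvd, of the 9 members with enough counts, had a CV over 0.5 (0.578), near the 8.81% of all genes, with 53.1 CPM in gland 14.

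Of the markers of brown and beige fat, Ucp1, the uncoupling protein of heat-producing fat, was at 175 CPM in gland 9 and at 8.85 to 17.3 CPM in the other 5. Cidea, a lipid droplet protein of such fat, was also highest in gland 9, at 313 CPM against 75.8 to 210.0 CPM. Cox8b, a cytochrome oxidase subunit of brown fat and muscle, was instead highest in gland 11 at 112 CPM, where skeletal muscle genes were also highest. Elovl3, Dio2, Ppargc1a, Slc27a2 and Otop1 had mean levels of at most 1.91 CPM.

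Fibroblast and matrix genes took 7.06% of the counts, for 20 measured genes. Their sum ran from 39531 to 89429 CPM (median 74188), and the 5 glands other than gland 14 lay at 71081 to 89429 CPM. None of the 19 members with a mean count of at least 50 had a CV over 0.5 (against 8.81% of all genes), and gland 14 was lowest for 15 of them (against 40.6% of all genes). Fbn1, the microfibril protein fibrillin, was at 76.5 CPM in gland 14 and 399 to 552 CPM elsewhere. Not all matrix genes followed, since Col6a2, a subunit of microfibrillar collagen, had 681 to 873 CPM (median 811) and its highest value in gland 14, as did Bgn (biglycan) at 513 CPM. Eln (elastin) was highest in gland 9, at 1925 CPM, against 948 to 1226 CPM in the rest. Basement membrane was represented by Col4a1, Lamc1 and Nid2. Col4a1 had 1410.2 to 2701 CPM (median 2531; 2407 to 2701 without gland 14), with a CV of 0.0494 without gland 14, and Lamb2 had 0 counts in all glands.

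Epithelial genes were detected at modest levels in all 6 glands. The luminal list summed from 365 to 1056 CPM (median 677; 365 to 779.6 without gland 14), with the highest sum in gland 14 and the lowest in gland 9. Krt8, a keratin of luminal cells and the most abundant member, ran from 51.6 to 193 CPM (median 123; 51.6 to 136 without gland 14), and its partner Krt18 from 34.7 to 143 CPM (median 75.4; 34.7 to 113 without gland 14). Epcam, a surface protein of epithelial cells, was between 40.9 and 100.4 CPM, and here the highest gland was 7. Gland 9 was the lowest for Krt8, Krt18, Krt19, Epcam and Cdh1 alike. Spint2, a protease inhibitor of epithelia, was the only member of 10 with a mean count of at least 50 to exceed a CV of 0.5 (0.514, and 0.222 without gland 14), near the 8.81% of all genes, and Cldn3 had 0 counts. Elf5, a transcription factor of luminal progenitors, lay between 8.63 and 20.5 CPM. Of the 19 members measured, 18 were detected.

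The basal markers counted included Krt14, Krt15 and Krt17, keratins of basal cells that are also made in skin and hair follicles. Krt14 was at 59.2 CPM in gland 8 and 57.4 CPM in gland 14, at 5.78 CPM in gland 9 and at 16.04 to 22.6 CPM in the others. Krt17 gave the same pair of high glands, 82.2 CPM in gland 14 and 57.1 CPM in gland 8, but Krt15 did not, with 119.7 CPM in gland 14, 73.5 CPM in gland 7 and 63.7 CPM in gland 8. Tp63, a transcription factor of basal cells, ran from 2.22 to 10.8 CPM (median 8.06) and was not high in those glands (5.75 and 7.44 CPM). Oxtr, the oxytocin receptor, was highest in gland 10 at 75.2 CPM and fell to 2.12 CPM in gland 14. All 4 members with a mean count of at least 50 had a CV over 0.5 (against 8.81% of all genes), and 3 did without gland 14 (against 1.41% of all genes). Genes of the outer skin and the hair follicle, listed separately, summed to 10.6 to 57.7 CPM, none of them with a mean count of 50. Krt25, a keratin of the hair root sheath, was at 36.04 CPM in gland 11 and 10.3 CPM in gland 8 and had 0 counts in the other 4 glands. The part of skin in the basal keratin values was not tested.

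Milk protein genes were already counted in glands that had not yet lactated. Csn1s1, the alpha-S1 casein, ran from 48.00 to 243 CPM (median 122), and Lalba, the alpha-lactalbumin subunit of lactose synthase, from 58.4 to 231 CPM (median 131; 58.4 to 158 without gland 14). Csn3 (kappa-casein) reached 36.1 CPM in gland 7, Btn1a1 (butyrophilin) 11.1 CPM in gland 10 and Wap (whey acidic protein) at most 3.19 CPM. Csn2 and Csn1s2a had 0 counts in all glands, which by itself does not show that they were not expressed. Glycam1 is listed with the milk genes but is also made by the high endothelial venules of lymph nodes, and it went its own way, with 916 CPM in gland 14 and 1.23 to 8.45 CPM in the others. Without it the milk list of gland 14 was carried by Csn1s1 and Lalba, at 169 and 231 CPM.

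Among receptors for hormones and growth factors, most counts fell on the growth hormone receptor, Ghr, with 98.8 to 687 CPM (median 533; 477 to 687 without gland 14), and the glucocorticoid receptor, Nr3c1, with 91.4 to 235 CPM (median 209; 191 to 235 without gland 14). Both were lowest in gland 14. The estrogen receptor Esr1 was near the smallest detectable level, between 1.64 and 5.35 CPM, the progesterone receptor Pgr was at most 1.33 CPM, the prolactin receptor Prlr lay between 2.12 and 5.64 CPM, and Esr2 had 0 counts. Erbb2 and Fgfr2, growth factor receptors used by ducts, had CVs of 0.194 and 0.186. The 4 members with enough counts had CVs below 0.5, which with 8.81% of all genes above it says little for so few genes.

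With all 6 glands, skeletal muscle genes showed the widest range between glands of the lists that did not rest on gland 14. The list sum was 11938 CPM in gland 11, 4899.6 CPM in gland 9, 3006 CPM in gland 8, 2158 CPM in gland 14, 1562 CPM in gland 7 and 358 CPM in gland 10, a ratio of 33.4 between the highest and the lowest. Muscle genes were thus detected in all 6 glands. The rank of this range rested on gland 10. Without that gland the log2 ratio of the highest to the lowest sum fell from 5.06 to 2.92, and the ribosomal RNA list had 3.02. Acta1, skeletal alpha-actin, ran from 78.3 to 2211 CPM (median 525), and Myl11, a regulatory myosin light chain of fast fibres, from 48.9 to 2414 CPM (median 422). Every member with a mean count of at least 50 had a CV over 0.5 (18 of 18, against 8.81% of all genes), as did 17 of 17 without gland 14 (against 1.41% of all genes). Fast-fibre myosin genes (Myh4, Myh1 and Myh2) were highest in gland 11 at 572, 451 and 261 CPM. Myh7, the slow and cardiac myosin, was instead slightly higher in gland 14 (36.8 CPM) than in gland 11 (34.7 CPM). Genes of heart muscle, listed as a control, summed to at most 28.3 CPM, and Myl7 had 0 counts.

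Smooth muscle and mural genes were highest in gland 14, with a sum of 1922 CPM against 573 to 871 CPM in the others. Tagln, an actin-binding protein of smooth muscle and myoepithelium, was at 593 CPM there and at 60.8 to 141 CPM elsewhere. Tagln, Myl9, Myh11, Actg2 and Cnn1 had CVs over 0.5, 5 of 9 genes with enough counts (against 8.81% of all genes), and none of 9 did without gland 14 (against 1.41% of all genes). Cspg4, a proteoglycan of pericytes, was the exception with its lowest value in gland 14, 76.9 CPM.

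Blood endothelial genes followed a like pattern. Their sum was 920.1 CPM in gland 14 and 269.6 to 400.0 CPM in the other glands. Pecam1, an adhesion protein of endothelium that is also present on leukocytes, was at 242 CPM in gland 14 against 28.3 to 62.5 CPM, and Egfl7 and Esam were also highest in gland 14. Cdh5 and Flt1, which are more restricted to endothelium, were not, with 27.6 and 7.79 CPM in gland 14, inside the range of the other glands. Cldn5 had 0 counts. The lymphatic genes Lyve1 and Pdpn were lowest in gland 14, and Prox1, the defining transcription factor of lymphatic vessels, was at most 1.74 CPM.

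**Figure D2:**
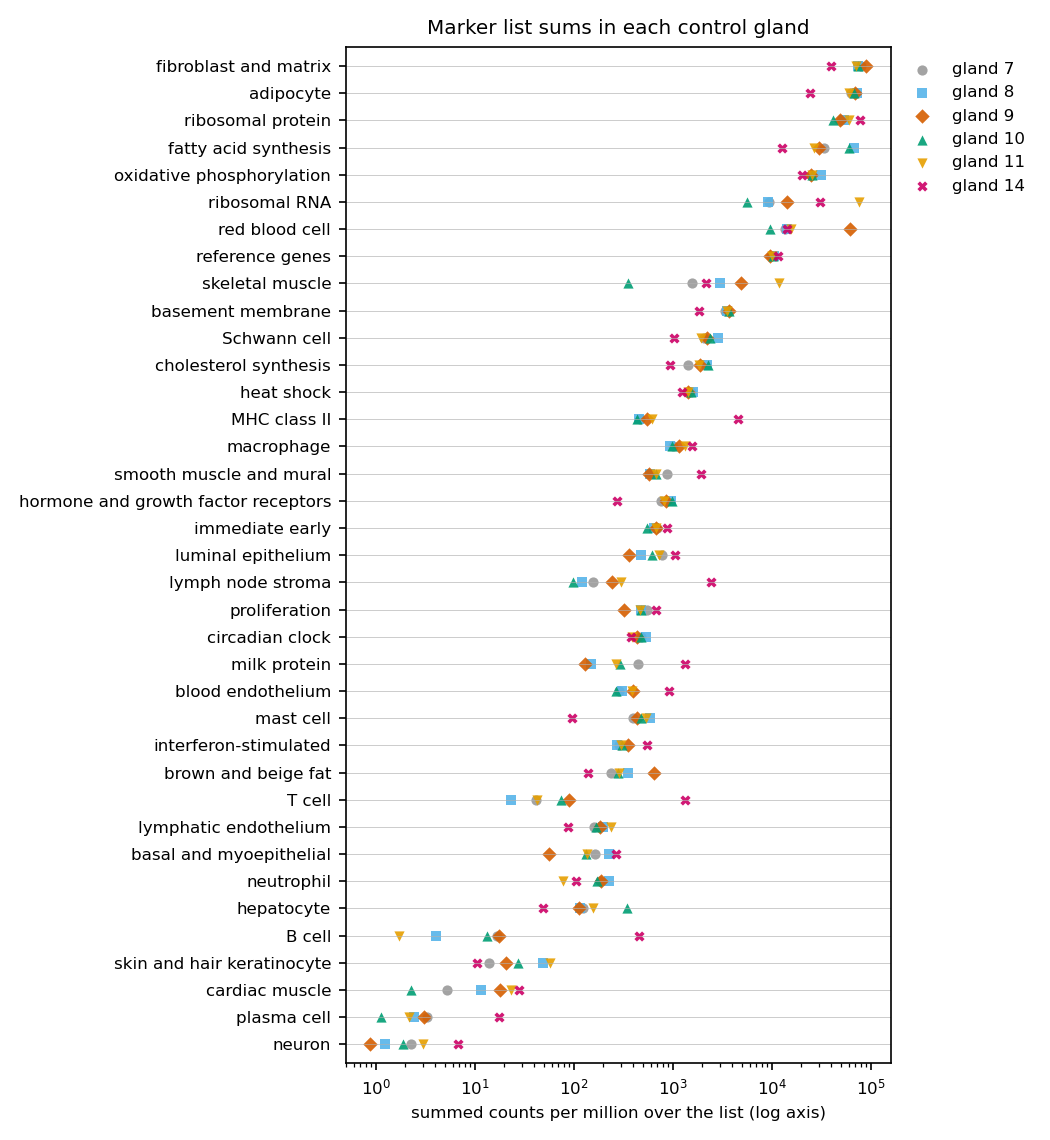
Summed CPM of each marker list in each of the 6 control glands, on a log axis, ordered by the mean of the list. Gland 14 is far above the other glands for B cell, T cell, lymph node stroma and MHC class II genes, gland 9 for red blood cell genes, and skeletal muscle sums run from 358 to 11938 CPM.

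Lymphocyte genes were low in 5 glands and high in gland 14. The B cell list summed to 457 CPM in gland 14 and to 1.74 to 17.8 CPM in the others. Cd79b, a signalling subunit of the B cell receptor and the most abundant member, was at 233 CPM in gland 14 and at 0.822 to 8.001 CPM elsewhere. The T cell list summed to 1335 CPM in gland 14 and to 23.4 to 90.7 CPM elsewhere. The CD3 subunits Cd3d, Cd3e and Cd3g of the T cell receptor complex reached 151, 118 and 173 CPM there, and Cd3d and Cd3g were at no more than 3.11 and 8.45 CPM in another gland. Cd4 was the exception among the T cell genes, with 24.1 CPM in gland 14 inside a range of 9.86 to 28.3 CPM, and rat macrophages also carry this receptor.

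Genes of lymph node stroma moved with them. Ccl19 and Ccl21, chemokines that draw T cells and dendritic cells into lymph nodes, were at 402 and 1897 CPM in gland 14. In the other glands Ccl19 was between 0.434 and 5.78 CPM, and Ccl21, which lymphatic vessels also make, between 69.9 and 271 CPM. Cxcl13, the chemokine of B cell follicles, was at 144 CPM against 25.97 to 73.3 CPM, and Madcam1 and Chst4, of high endothelial venules, were at 11.7 and 0.708 CPM, where 1.06 CPM was the smallest detectable level. MHC class II genes, which present antigen, summed to 4604 CPM in gland 14 and 437 to 626 CPM elsewhere. All 7 members with a mean count of at least 50 had a CV over 0.5 with gland 14 (against 8.81% of all genes) and 0 of 6 without it, when only 1.41% of all genes did. Cd74, the invariant chain, was at 2353 CPM in gland 14 and 180.2 to 269.6 CPM in the rest. Plasma cell genes stayed low, and Mzb1 reached 12.04 CPM in gland 14. The part of lymph node in the values of gland 14 was not tested.

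The sum of the macrophage genes ran from 944 to 1560.4 CPM (median 1085; 944 to 1323 without gland 14). The complement subunits C1qa, C1qb and C1qc, made by tissue macrophages, had CVs of 0.0823, 0.137 and 0.0916, and C1qa lay between 146 and 184 CPM. Lyz2, the lysozyme of macrophages and other myeloid cells, was high in gland 14 (914 CPM against 179.9 to 368 CPM), while Mrc1 and Cd163, receptors of resident macrophages, were low there and highest in gland 11 at 169 and 69.5 CPM. Lyz2 and Cd163 were over a CV of 0.5, 2 of 8 members with enough counts (against 8.81% of all genes), and 0 of 8 were without gland 14 (against 1.41%). Mast cell genes behaved like those of the fat pad, with a sum of 96.7 CPM in gland 14 and 401 to 597 CPM in the others. Cma1, a mast cell chymase, had 47.1 to 227 CPM (median 174; 157 to 227 without gland 14), and Cpa3, a carboxypeptidase of mast cell granules, was at 13.5 CPM in gland 14 against 121 to 182 CPM. Of the neutrophil list only Mpo had a mean count of at least 50, with 73.8 to 221 CPM (median 172). S100a8, S100a9, Camp and Ngp, which mark the same cells, had means of at most 4.97 CPM and Elane had 0 counts, so the list did not behave as a unit.

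**Figure D3:**
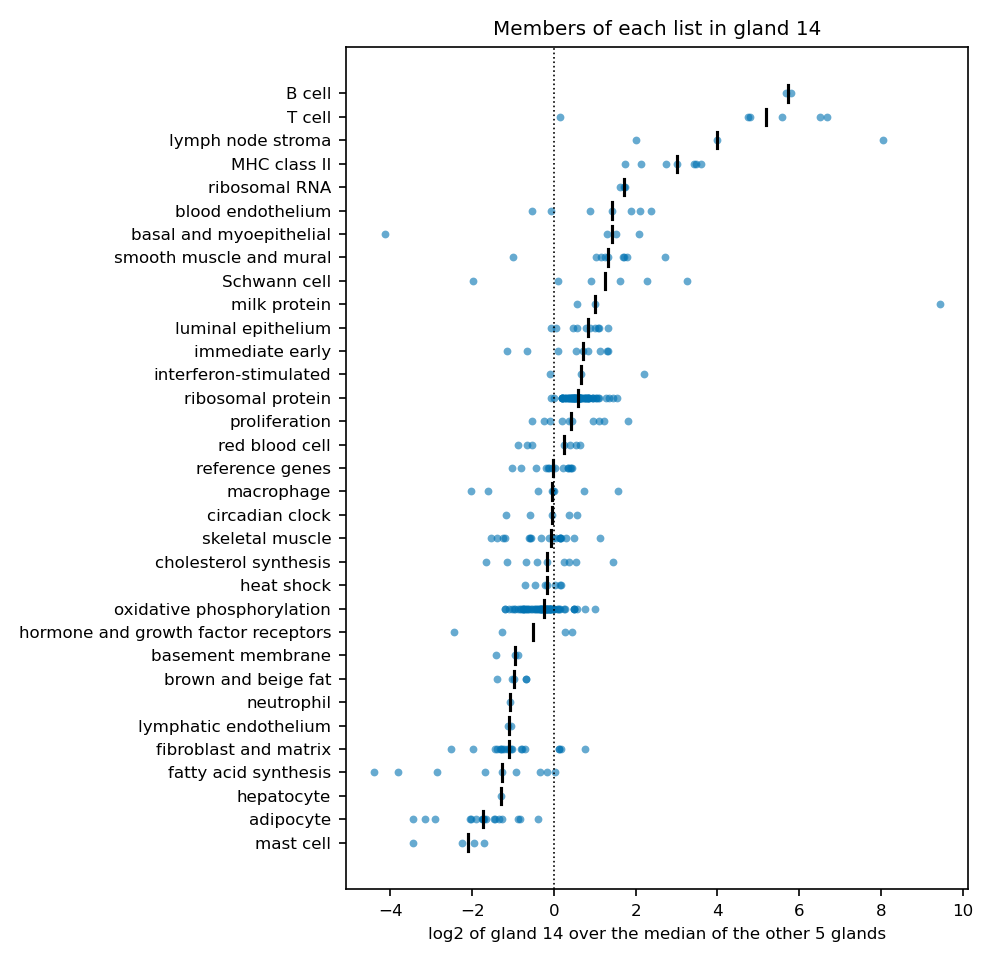
Log2 ratio of the CPM in gland 14 to the median of the other 5 control glands, for list members with a mean count of at least 50 (points), with the median of each list (bar). B cell, T cell, lymph node stroma and MHC class II genes lie to the right of 0 and adipocyte, mast cell and most matrix genes to the left. No B cell or T cell gene has a mean count of at least 50 without gland 14, so these are shown only through the gland in which they are high. The same holds for part of 2 other lists, as lymph node stroma keeps 2 of 3 members without gland 14 and MHC class II keeps 6 of 7.

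Hemoglobin genes marked blood in every gland and most in gland 9. The red blood cell list summed to 61352 CPM in gland 9 and to 9628 to 15611 CPM in the other 5, and hemoglobin genes took 5.72% of the counts of gland 9 against 0.980% to 1.60%. Hbb, a beta chain, ran from 3311 to 20102 CPM (median 5518; 3947 to 20102 without gland 14), and Hba-a1, an alpha chain, from 2241 to 17349 CPM (median 3524). Reads of the alpha and of the beta genes may be shared between near-identical copies, so the split within each chain is uncertain. Alas2, the heme synthesis enzyme of red cell precursors, and Slc4a1, the anion exchanger of the red cell membrane, were highest in gland 9 too, at 119.6 and 77.3 CPM. All 7 members with a mean count of at least 50 had a CV over 0.5, with gland 14 (against 8.81% of all genes) and without it (against 1.41% of all genes).

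Ribosomal RNA took a variable part of each library. Rn45s, the precursor of ribosomal RNA, was at 59696 CPM in gland 11 and 23121 CPM in gland 14, against 4301 to 10957 CPM in the others, and Rn28s and Rn5-8s, whose reads overlap with the precursor, were highest in the same glands. Ribosomal RNA is normally removed or left behind when libraries are made, and the labels name only standard Illumina libraries for this step, while the paper's methods name the TruSeq RNA kit, whose protocol selects polyadenylated RNA. Genes of ribosomal proteins, taken by symbol after the values had been seen, were highest in gland 14 for 63 of 75 members with enough counts (against 36.9% of all genes), with a sum of 77967 CPM against 41289 to 61046 CPM. The nuclear genes of oxidative phosphorylation, taken in the same way, were lowest in gland 14 for 46 of 74 (against 40.6% of all genes), and their sum ran from 20428 to 31288 CPM (median 25325; 24873 to 31288 without gland 14).

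Markers of nerve, liver and brain describe what else the glands held. Myelin genes of Schwann cells were detected in all 6, and Mbp, a protein of myelin, was highest in gland 14, at 166 CPM against 48.5 to 82.9 CPM in the others. S100b, which adipocytes make as well, took most of that list's counts and was lowest in gland 14 at 539 CPM. Neuronal genes were almost absent, with list sums of at most 6.73 CPM and 0 counts for Syt1, Rbfox3 and Nefl. The cell bodies of the nerves lie outside the gland. Alb, the liver's albumin gene, was counted at 49.6 to 342 CPM (median 118; 113 to 342 without gland 14), with the highest level in gland 10, while Apob, Ttr, Fgb and Tat, which mark hepatocytes, had 0 counts in all glands.

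Lists that describe the state of cells rather than their type were summed in the same way. Proliferation genes summed from 322 to 683 CPM (median 479; 322 to 556 without gland 14), and Top2a, a topoisomerase of dividing cells, ran from 26.2 to 62.3 CPM (median 45.3), with the lowest value in gland 9. Mcm3, a subunit of the replication helicase, was highest in gland 14 at 91.7 CPM and was the only 1 of 10 members with enough counts over a CV of 0.5, near the 8.81% of all genes. Heat shock genes had the lowest median CV of the marker lists, 0.113, and their sum ran from 1233 to 1619 CPM (median 1486; 1419 to 1619 without gland 14). Immediate early genes, which respond within minutes to handling of tissue, summed from 551 to 869 CPM (median 686; 551 to 696 without gland 14), and Fos was between 1.64 and 12.8 CPM. Btg2 and Ier2 exceeded a CV of 0.5, 2 of 9 members with enough counts (against 8.81% of all genes), each with its highest value in gland 14 (167 and 133 CPM), and 0 of 9 did without that gland (against 1.41%). Among interferon-stimulated genes, Bst2 was at 205 CPM in gland 14 and 39.3 to 46.9 CPM in the rest. Of the 3 members with a mean count of at least 50, gland 14 was highest for 2 and lowest for 1 (against 36.9% and 40.6% of all genes). Clock genes, whose levels swing through the day, summed to 380.0 to 539 CPM. Dbp, an output gene of the clock, ran from 62.96 to 198 CPM (median 117), and Tef, a relative of it, had a CV of 0.0484. The hour at which each gland was taken was not used here.

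The spread between the 6 glands was then described gene by gene for the 6404 genes with a mean count of at least 50, which held 96.3% of the counts. Their median CV was 0.204, the middle 50% of genes lay between 0.137 and 0.309, and the CV that random counting alone gives at these depths had a median of 0.0845. Most genes therefore varied by more than counting error, a limit that leaves out any difference between separate animals, so no more is read from it. A CV over 0.5 was found for 564 genes, or 8.81%. Without gland 14 the median CV was 0.126, and 87 of 6168 genes, or 1.41%, had a CV over 0.5. Of these 87 genes, 80 were over 0.5 with gland 14 as well.

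The share of widely varying genes depended on how strongly a gene was counted. Among genes with a mean count between 50 and 100, 12.6% had a CV over 0.5, and among those between 200 and 500 it was 5.66%. For the 47 genes with a mean count of at least 5000 the share was 19.1%, and their median CV of 0.303 stood beside a counting CV of 0.0101. Counting error was thus a small part of the spread of these most abundant genes, which include Hbb, Rn45s and Scd.

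**Figure D4:**
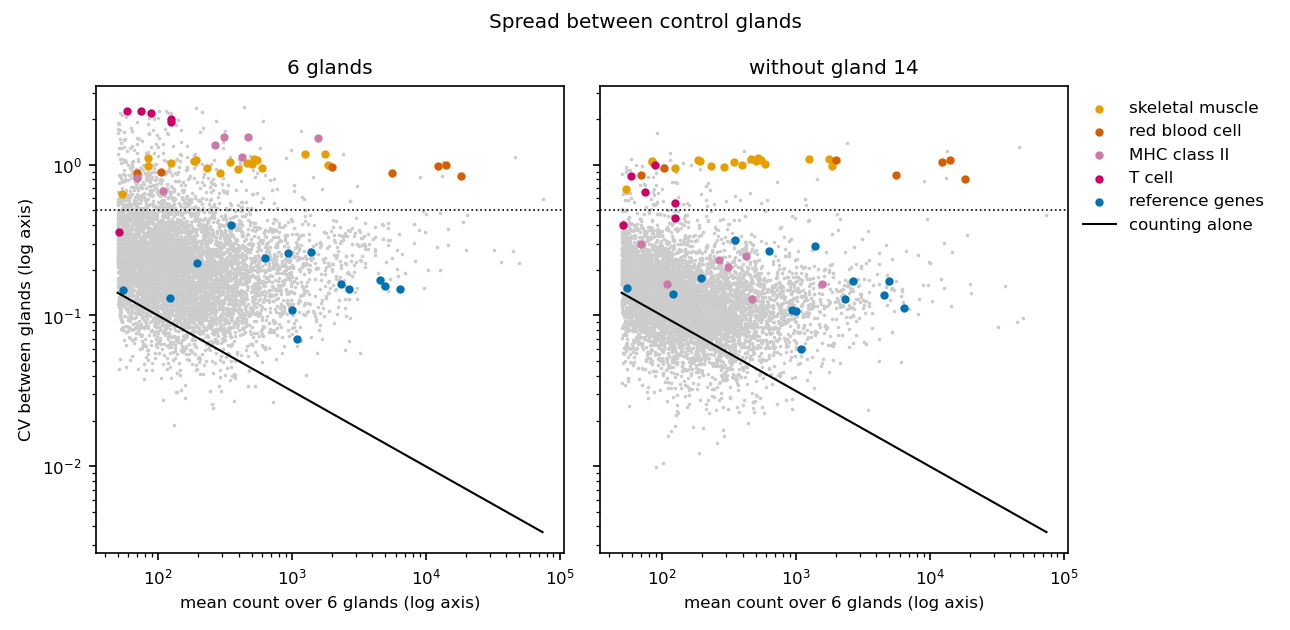
CV between glands against the mean count over the 6 glands, both on log axes, for genes with a mean count of at least 50, with all 6 glands (left) and without gland 14 (right). In both panels genes were selected and placed by their mean count over all 6 glands. The T cell genes shown reach that count only through gland 14, so in the right panel their CVs cannot be read against the line. The line is the CV expected from counting alone and the dotted line a CV of 0.5, and nearly all skeletal muscle and red blood cell genes stay above 0.5 in both panels while MHC class II genes do not.

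Gland 14 held the highest value for 442 of the 564 genes over 0.5 (78.4%), and for 36.9% of all 6404 genes. Some genes reached the minimum mean count only through gland 14, so part of this contrast comes from the way genes were selected. Gland 11 was next after gland 14 with 56 of the 564 genes, or 9.93%, below the 13.1% of all 6404 genes for which it was highest. Gland 7 had the highest value for 5, or 0.887%, against 7.39% of all genes. With gland 14 left out, gland 11 was highest for 45 of the 87 genes and gland 9 for 21. The shares of all 6168 genes for which glands 11 and 9 were then highest are not reported here. The counts of 45 and 21 are therefore not read further. These 87 genes included 17 of the skeletal muscle list, 7 of the red blood cell list and 3 of ribosomal RNA.

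**Figure D5:**
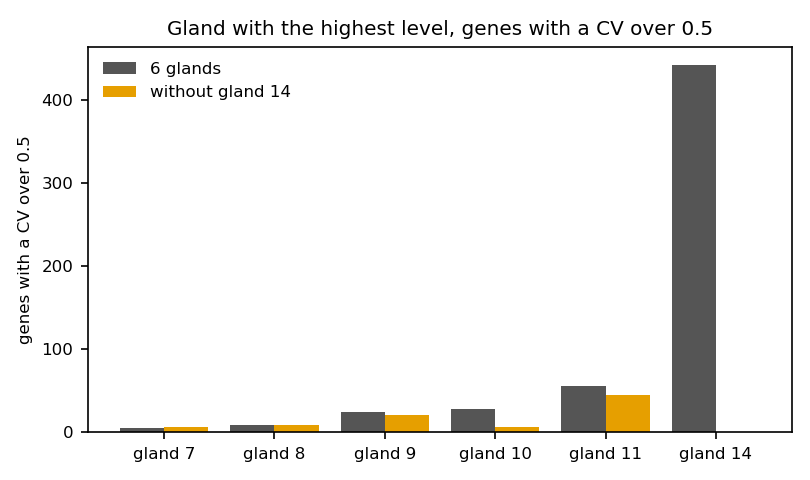
Number of genes with a CV over 0.5 whose highest level was in each gland, with all 6 glands (grey, 564 genes) and without gland 14 (orange, 87 genes). Gland 14 holds 442 of the first set, and gland 11 holds 45 of the latter. The share of all genes highest in gland 11 without gland 14 is not reported here. Of all 6404 genes, 36.9% were highest in gland 14, and some reached the count minimum only through it.

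The 15 genes with the largest CV, between 2.06 and 2.40, were all highest in gland 14 (against 36.9% of all genes), and 7 of them were on a marker list. Among them were Glycam1, Ccl19, Cd3d, Tnfrsf14, Cd3e, Cd27, Acap1, Il21r, Cd79b, Ptprcap, Cd3g, Tbc1d10c, Cd6 and Skap1. Cd27 and Tnfrsf14 are receptors of the tumor necrosis factor family on lymphocytes, Cd6 is a T cell surface receptor, Il21r a cytokine receptor of lymphocytes and Skap1 an adaptor of T cell adhesion. Cd27 was at 205 CPM in gland 14 and at most 7.11 CPM in another gland, and Tnfrsf14 was at 229.8 and at most 8.89 CPM. Acap1, which regulates the recycling of membrane receptors, was at 424 CPM against 1.74 to 11.8 CPM. For these 15 genes the CV with all glands says that a single gland was high. Without gland 14 their mean counts were too low for them to be ranked.

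Without gland 14, the 15 genes with the largest CV, a selection made after the values had been seen, ran from 1.07 to 1.62. Ucp1 came first, owing to its 175 CPM in gland 9. Rn45s, Rn28s and Rn5-8s followed with a gene known here only by its Entrez number, 310926, which was at 3125 CPM in gland 11, 1327 CPM in gland 14 and at most 537 CPM elsewhere. Most of the others were muscle genes (Tnni2, Myl11, Myot, Myl1, Myh4, Actn3, Tnnt3 and Sypl2), with their highest values in gland 11. The rest were the hemoglobin genes Hba-a1 and Hba-a3, highest in gland 9. Myot, a protein of the sarcomere's Z disc that was on no list, was at 82.9 CPM in gland 11 and 1.91 CPM in gland 10. Sypl2, a membrane protein of the muscle triad, gave 65.6 and 2.29 CPM in the same glands.

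At the other end, the 15 genes with the smallest CV lay between 0.0189 and 0.0340. Among them were Agfg1, Wtap, Aph1a, Itm2c, Hp1bp3, Mcmbp, Ccar1, Trnt1, Phb1, Ppp2r2a, Metap1, Polr2e, Sec24c and Aamp. Wtap, a subunit of the RNA methyltransferase complex, was at 96.99 to 103 CPM (median 98.2). Polr2e, a subunit shared by the nuclear RNA polymerases, was at 173 to 188 CPM (median 182), and Aph1a, a subunit of gamma-secretase, at 94.5 to 101 CPM (median 99.1). By their selection, gland 14 lay close to the other glands in all of them. In all 15 the CV was below the one that counting alone gives on average, as it was for 425 genes in all (6.64%), so their order is not resolved at this depth.

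Genes counted more deeply give a firmer view of low spread. Among the 345 genes with a mean count of at least 1000, a limit chosen after the first 15 had been seen, the smallest CVs ran from 0.0400 to 0.0844 over 15 genes, and 0 of these were below their counting CV. Hnrnpk, an RNA-binding protein of the nucleus, came first with 464 to 512 CPM (median 495) and a CV of 0.0400 beside a counting CV of 0.0283. Dstn (the actin-severing protein destrin), Psap (the lysosomal protein prosaposin), Hsp90ab1 (a constitutive chaperone) and Ncl (nucleolin) followed with CVs of 0.0562, 0.0563, 0.0587 and 0.0625. Psap ran from 1112 to 1310.3 CPM (median 1252). The others were Itm2b, Ppp1ca, Cd63, Ywhaz, Ppib, Ctsa, Itgb1, Hsp90b1, Pcbp2 and Hnrnpab.

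Genes in common use as references for normalization differed in how steady they were. None of the 14 had a CV over 0.5, against 8.81% of all genes, and 9 were below the median CV of all genes. Ywhaz had the smallest CV, 0.0703, lower than all but 3.48% of genes, with 383 to 454 CPM (median 431). Pgk1, Gusb and Tbp followed at 0.108, 0.130 and 0.149, although the CV of Tbp was close to its counting CV of 0.136. Rplp0, Ppia, Actb, Rpl19 and B2m lay between 0.150 and 0.171. Rpl19 ran from 714 to 1123 CPM (median 881), highest in gland 14. Hprt1, Gapdh, Sdha and Tfrc were among those above the median, at 0.222, 0.242, 0.260 and 0.396. Sdha, a subunit of succinate dehydrogenase, fell to 0.108 without gland 14, where it was at 188 CPM, but Gapdh stayed at 0.268 and ran from 164 to 339 CPM (median 239). Reads of Gapdh, Ppia and the ribosomal protein genes can be shared with processed copies elsewhere in the genome, which leaves their level uncertain.

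Promoter sequences are shown for skeletal muscle genes, which moved together between the glands, and for genes of smallest CV. The order of the latter is not resolved at this depth, so they are not shown as the genes that moved least. The sequences are from RefSeq (assembly GRCr8), 250 bases before to 50 bases after the annotated start, for the 2 most abundant muscle genes and the 2 genes of smallest CV that have an entry. Acta1 lies at chr19:68784145-68784444 on the minus strand, Myl11 at chr1:191260039-191260338 on the plus strand, Agfg1 at chr9:91572712-91573011 on the plus strand and Wtap at chr1:50070723-50071022 on the plus strand. Capitals mark the motifs TATAAA (the TATA box), CCAAT and CAGCTG (an E-box of the kind that MyoD binds), searched on both strands.
Acta1: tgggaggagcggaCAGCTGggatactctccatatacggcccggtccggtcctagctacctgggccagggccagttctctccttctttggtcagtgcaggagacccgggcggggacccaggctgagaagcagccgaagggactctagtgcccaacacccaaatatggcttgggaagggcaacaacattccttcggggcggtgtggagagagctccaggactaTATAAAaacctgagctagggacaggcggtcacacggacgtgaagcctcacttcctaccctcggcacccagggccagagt
Myl11: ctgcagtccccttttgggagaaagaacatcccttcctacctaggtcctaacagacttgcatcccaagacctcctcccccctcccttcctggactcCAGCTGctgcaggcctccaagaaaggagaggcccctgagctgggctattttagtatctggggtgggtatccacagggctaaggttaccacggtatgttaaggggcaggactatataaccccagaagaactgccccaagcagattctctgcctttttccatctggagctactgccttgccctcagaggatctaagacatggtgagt
Agfg1: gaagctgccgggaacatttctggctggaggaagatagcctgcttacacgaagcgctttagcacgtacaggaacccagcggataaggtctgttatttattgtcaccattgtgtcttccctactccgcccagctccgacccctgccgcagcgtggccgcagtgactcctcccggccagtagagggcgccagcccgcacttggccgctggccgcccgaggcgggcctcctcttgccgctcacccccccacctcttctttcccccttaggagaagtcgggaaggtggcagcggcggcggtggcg
Wtap: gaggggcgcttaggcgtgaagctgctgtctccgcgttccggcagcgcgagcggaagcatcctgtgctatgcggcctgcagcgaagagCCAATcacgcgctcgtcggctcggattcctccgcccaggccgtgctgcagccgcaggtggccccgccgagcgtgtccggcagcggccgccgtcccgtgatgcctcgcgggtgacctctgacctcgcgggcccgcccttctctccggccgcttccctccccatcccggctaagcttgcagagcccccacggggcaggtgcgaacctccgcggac

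In Acta1, TATAAA began 29 bases and CAGCTG 237 bases before the start, in Myl11 CAGCTG began 155 bases before it, and in Wtap CCAAT began 163 bases before it. Agfg1 held none of the motifs. Of the 21 skeletal muscle genes measured, 19 had a promoter entry, and 8 of these (42.1%) held TATAAA and 8 (42.1%) held CAGCTG. Of the 100 genes with the smallest CV, 83 had an entry, and TATAAA was in 3.61% and CAGCTG in 10.8% of them. Over the 5296 genes with a mean count of at least 50 and an entry, the shares were 6.72% and 15.7%, and over all 27457 promoters 14.3% and 15.1%. CCAAT was in 31.6%, 42.2%, 39.2% and 37.7% of the same sets. The median number of CG dinucleotides was 5 in the muscle promoters, 25 in those of smallest CV, 22 in those of all genes with enough counts and 7 over all promoters. A match of these letters is a description and not a binding site, and no link of a motif to the spread between glands was tested.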

How the data were processed

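Gene counts of the 6 control libraries were analysed. The authors deposited raw counts of reads per gene, by Entrez identifier, without normalization. Their processing notes name bcl2fastq, CASAVA 1.8, TopHat, DESeq and the build rn4, and the counting program, the annotation and the use of strand are not given in the sources used here. RNA was extracted with a lipid tissue kit and standard Illumina libraries were made. Symbols came from the RefSeq gene table of GRCr8. The other 6 libraries entered only the TMM alternative over all 12.

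Counts were scaled by TMM over the 6 libraries with edgeR 4.0.16 in R 4.3.3, and DESeq2 1.42.0 gave the alternative size factors. Means, SDs and CVs were computed in Python 3.11.15 with pandas 2.3.3 and numpy 2.4.6. The counting CV is the Poisson CV at each gene's mean level. The CV calculation was tested on simulated data before use. Genes named were the 20 with the largest mean CPM, the 15 with the largest and the 15 with the smallest CV among genes with a mean count of at least 50, the most abundant, absent and widely varying members of each list, and the reference genes. Some genes that met these rules are not reported here. The members and lists were chosen with earlier results of these data known. No test between groups was made, as a single group was described, and Dixon's criterion was used only to pick out glands far from the others. Alternatives were library totals, other scalings, other count minimums, other measures of spread, and leaving out ribosomal RNA genes, hemoglobin genes or each gland in turn.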

Additional observations from a re-analysis of the deposited data

Results flagged for a closer look

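The gap between the most extreme gland and its nearest neighbour, relative to the range of the 6 glands, was examined with Dixon's criterion in 76 sets of 6 values (library measures, list sums, the 20 most abundant genes and the reference genes). The criterion is set so that about 1 in 20 sets of independent, normally distributed values pass it, or 3.80 of 76. Here 28 sets passed it, 19 of them through gland 14. Many of the sets share genes or glands and are not independent, and the lists were chosen with earlier results of these data known. The 28 are therefore not read against the 3.80, and the criterion only picks out values to look at.

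Gland 14 was far below its nearest neighbour for the adipocyte list (24374 against 60529 CPM) and basement membrane (1864 against 3397 CPM). For the hormone and growth factor receptors it was at 272 against 767 CPM, a gap that lay mostly in Ghr and Nr3c1. It was also far below for the fibroblast and matrix list (39531 against 71081 CPM). The same was seen for single genes, in Col3a1 (8579 against 18086 CPM), Sparc (5944 against 12651 CPM), Car3 (824 against 8545 CPM), Adipoq (1573 against 5693 CPM) and Sdha (188 against 367 CPM).

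Gland 14 was far above its nearest neighbour for the lists of B cells (457 against 17.8 CPM), T cells (1335 against 90.7 CPM), plasma cells (17.7 against 3.28 CPM), lymph node stroma (2455 against 301 CPM), MHC class II (4604 against 626 CPM) and interferon-stimulated genes (554 against 357 CPM, a gap that lay mostly in Bst2). It was also above for smooth muscle and mural genes (1922 against 871 CPM), blood endothelium (920.1 against 400.0 CPM), milk protein genes (1328 against 448 CPM, mostly Glycam1) and the neuron list (6.73 against 3.04 CPM).

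Gland 9 was far above the others for red blood cell genes (61352 against 15611 CPM), and singly for Hbb (20102 against 6369 CPM), Hba-a1 (17349 against 4940.5 CPM), Hbbl1 (14600.5 against 4444 CPM) and Hba-a2 (14961 against 4083 CPM). Gland 11 was far above for ribosomal RNA (76432 against 30497 CPM) and Rn45s (59696 against 23121 CPM). Gland 10 was far above for the hepatocyte list (343 against 156 CPM), which was nearly all Alb. The total of gland 7 was 2944680 counts, and the next highest was 2570080.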

How the results depend on the processing

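The median CV between glands and the number of genes with a CV over 0.5 depended on gland 14 and on the minimum count. The median CV was 0.244 with a minimum mean count of 10, 0.244 as edgeR's tagwise biological CV, and 0.126 to 0.218 when each gland was left out, the lowest without gland 14. The number of genes over 0.5 was 1350 with a minimum of 10, where more genes enter, 136 with a minimum of 200, where fewer enter, and 87 to 699 with a gland left out, again lowest without gland 14. Library totals, DESeq2 size factors, TMM over all 12 libraries, the SD of log2 CPM (prior count 2, converted to a CV) and the moments estimate with counting variance taken off gave 547 to 724 genes, and edgeR's tagwise value gave 390. The share of counts in the 100 most abundant genes and the number of genes that hold 50% of the counts moved by less than 1 SD without ribosomal RNA or hemoglobin genes, and with each gland left out they were 33.7% to 35.9% and 321 to 375 genes. Of the 20 most abundant genes, 17 to 20 remained among the first 20 with a gland left out.

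With library totals or DESeq2 size factors, the mean of no list sum moved by more than 1 SD. This limit is loose, since the SD includes the spread from gland 14. All 37 list means also stayed within it when that gland was left out, so no stability is read from it. Without gland 14 the mean sum fell from 85.2 to 10.5 CPM for the B cell list and from 268 to 53.4 CPM for the T cell list. The log2 ratio of the highest to the lowest gland moved by more than 10% for 31 of 37 lists without gland 14, for 6, 7, 8 and 5 without glands 8, 9, 10 and 11 in turn, for 19 with library totals and 29 when list members were averaged on the log2 scale. With library totals this ratio went from 0.26 to 0.52 for the reference genes, 1.57 to 1.36 for the adipocyte list and 0.72 to 0.97 for the macrophage list. The order by counts per kilobase was not run, since coding lengths were not used here. No paired analysis was possible because the result comes from no test and the diet groups share no replicate numbers. Depth limits the ranking of the least variable genes and the reading of genes below about 1 CPM.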

Other observations

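Of the 87 genes with a CV over 0.5 without gland 14, 40 were on a list. The share of all 6168 genes on a list is not reported here, so this count is not read further. Some of the others are given here as single genes. They were chosen after their values were seen, and they form no fixed list and were not tested as a group. Fkbp5, a chaperone induced by glucocorticoids, was at 54.5, 52.2, 66.2, 102, 209.7 and 64.1 CPM in glands 7, 8, 9, 10, 11 and 14. Cdkn1a, the cell cycle inhibitor p21, was at 20.7, 19.7, 24.9, 16.4, 71.6 and 22.7 CPM in the same order. Both were highest in gland 11. Bcl6, a transcriptional repressor, was at 23.6, 13.6, 17.3, 59.95, 17.4 and 37.9 CPM, and Cish, a suppressor of cytokine signalling, at 23.6, 46.03, 52.4, 10.3, 49.9 and 19.5 CPM, so the high glands differed from gene to gene. The glutathione transferases Gstt1 and Gstt3, which may share reads, were both highest in gland 9, at 66.2 and 81.8 CPM, and had medians of 19.9 and 23.5 CPM. Alox15, an arachidonate lipoxygenase, was likewise highest in gland 9 at 739 CPM, with a median of 175 CPM.

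Ptprc and Coro1a, genes of all white blood cells, were also over a CV of 0.5 without gland 14 and were chosen after their values were seen. Ptprc was at 18.7, 13.2, 43.1, 19.1, 17.4 and 361 CPM and Coro1a at 41.01, 22.2, 63.1, 84.01, 22.6 and 1084 CPM in the same order of glands.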
